A study of Mus musculus with 3 samples.

Results

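Wnt proteins, their Frizzled receptors, the secreted proteins that block them and the intracellular relay behind the receptors were examined as 1 family of 49 genes among 22180 named genes on 3 expression arrays. The members were chosen by gene symbol. They were every gene named Wnt, Fzd, Sfrp, Dkk or Dvl with a number, together with Lrp5, Lrp6, Lef1, Tcf7l1, Axin1, Axin2, Apc and Ctnnb1. Tcf7, which was also asked for, had no probe set carrying that symbol alone and was not analysed here. The 49 symbols comprised 10 Frizzled receptor genes, 19 Wnt ligand genes, 2 co-receptor genes, 4 Sfrp and 4 Dkk antagonist genes, 3 Dishevelled genes, 6 genes of the destruction complex and its nuclear effectors, and Fzd10os. The last matched the name pattern but is named as an antisense transcript at Fzd10, so it was counted apart from the receptors. The label of the family held for the rest.

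All 3 arrays belong to 1 group: CD1 mice of wild-type genotype, 8 days after birth (the protocol allows a day less), whose ventricular-subventricular zone was dissected and dissociated. This zone lines the lateral ventricles and holds the neural stem cells of the postnatal forebrain. The cells were plated at 10 cells per microlitre and grown for 7 days as neurospheres, floating clonal colonies, with FGF at 10 ng/ml and EGF at 20 ng/ml, and pups were cultured separately. No Wnt protein or Wnt inhibitor is named in the medium, and its B27 supplement is not itemised. The labels do not tie an array to a pup, so p-values measure only how far these 3 arrays spread, and that spread may be technical. Whole cultures were measured, so fewer cells expressing a gene and less of its RNA per cell cannot be told apart.

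A Wnt is a lipid-bearing secreted glycoprotein that binds a Frizzled receptor, alone or together with the co-receptors Lrp5 and Lrp6. In the absence of ligand, a complex built on Axin and Apc marks beta-catenin for destruction. When the receptors are engaged, Dishevelled recruits Axin to the membrane, beta-catenin builds up and acts in the nucleus with TCF and LEF factors. Other Wnts act through Frizzled without beta-catenin, in the planar cell polarity pathway. Secreted Sfrp proteins carry a Frizzled-like domain that binds Wnts, and Dkk proteins act on Lrp5 and Lrp6. In the postnatal subventricular zone, Wnt signalling is known as a regulator of stem cell proliferation and of neurogenesis and oligodendrogenesis.

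With 1 group there is no contrast between conditions, so each gene's log2 signal was set against unspecific signal on its own array. This reference level was taken at the 95th percentile of 1405 probe sets for olfactory and vomeronasal receptor genes, which belong to the sensory epithelia of the nose, and was 5.63, 5.53 and 5.71 on arrays 1, 2 and 3. The distance of a signal from that level is called its margin. A gene was called above it where a one-sided moderated test in limma had an adjusted p under 0.05 over all 22180 genes. In that fit all genes of like signal shared 1 spread, so a margin as small as 0.145 could pass. A gene's own spread between the arrays did not enter its p-value. Very small p-values are therefore not printed. By this rule 13104 genes were called, 59.1% of all. That total holds the 1394 nasal receptor genes that set the level, of which 54 (3.87%) were called. Without them the share was 62.8%, and shares of all genes given below include them. Of the 49 members 32 were called (65.3%), a share near the background with or without those genes, which is no result about the family as a whole. Without a test, 33 members (against 59.6% of all genes) exceeded the level on all 3 arrays. Its classes are described in turn. Probes bind with different strength, so the signal of 1 gene is no measure of its transcript number against another gene.

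Markers of the cultured cells were called throughout, and those of other cell types in part. All 10 neural stem cell and radial glia markers and all 8 oligodendrocyte precursor markers were above the reference level, for example Sox2 (11.39 ± 0.073, SD, n = 3) and Olig2 (11.37 ± 0.0075). Of 8 markers each, 0 endothelial, 3 microglia and macrophage, 4 mural and fibroblast, 2 choroid plexus and 4 ependymal markers were above. Each of these shares was under the 59.1% of all genes, and the presence of such cells was not tested. The choroid plexus markers above were Otx2 (8.27) and Ttr (6.20), and the ependymal ones Foxj1 (7.86), Ccdc153 (6.59), Cfap126 (5.87) and Dynlrb2 (5.85). The mural and fibroblast markers above were Rgs5 (7.25), Pdgfrb (6.99), Col1a1 (6.24) and Col1a2 (6.05), and the microglial ones Cx3cr1 (6.66), C1qa (6.12) and P2ry12 (6.05). Among markers not above were Csf1r (5.55) and Ptprc (4.27) of microglia, Dcn (4.70) and Lum (3.97, 3.97 and 4.06 on the 3 arrays) of fibroblasts.

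The 300-base promoters of 3 members are shown because they set a called ligand beside members far under the reference level. Wnt7a was above the reference level, and Wnt8b and Fzd10 were the ligand and the receptor farthest under it. Sequences are from RefSeq on GRCm38.p6 and run 5′ to 3′ from 250 bases before to 50 bases after a transcript start. Capitals mark each CG dinucleotide, the usual site of DNA methylation.
Wnt7a (chr6:91411304-91411603, minus strand): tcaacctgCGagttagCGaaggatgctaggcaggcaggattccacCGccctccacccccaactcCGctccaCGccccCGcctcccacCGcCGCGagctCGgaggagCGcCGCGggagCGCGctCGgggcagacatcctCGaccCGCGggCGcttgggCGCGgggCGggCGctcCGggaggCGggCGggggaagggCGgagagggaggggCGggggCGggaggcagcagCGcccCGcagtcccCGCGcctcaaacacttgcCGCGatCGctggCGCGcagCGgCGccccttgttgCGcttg
Wnt8b (chr19:44493222-44493521, plus strand): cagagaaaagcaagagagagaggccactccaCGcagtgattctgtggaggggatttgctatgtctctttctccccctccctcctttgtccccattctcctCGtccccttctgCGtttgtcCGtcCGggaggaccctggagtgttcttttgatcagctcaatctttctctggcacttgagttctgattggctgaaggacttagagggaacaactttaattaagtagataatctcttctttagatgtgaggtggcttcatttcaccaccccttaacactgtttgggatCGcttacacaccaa
Fzd10 (chr5:128600856-128601155, plus strand): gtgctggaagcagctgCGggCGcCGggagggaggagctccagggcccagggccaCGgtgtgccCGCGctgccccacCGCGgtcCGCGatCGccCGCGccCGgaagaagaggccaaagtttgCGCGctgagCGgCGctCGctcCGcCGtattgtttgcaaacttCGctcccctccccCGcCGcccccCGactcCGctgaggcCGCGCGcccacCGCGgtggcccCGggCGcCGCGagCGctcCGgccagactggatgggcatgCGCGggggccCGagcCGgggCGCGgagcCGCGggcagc
The Wnt7a window held 42 CG dinucleotides, the Wnt8b window 6 and the Fzd10 window 45, against a median of 8 over 27025 genes of the table (for genes with several starts, the richest window). A promoter was found for 32 of the 49 members, and their median was 30.5, ranging between 6 and 58. The 5 called ligands with a promoter had a median of 45 and the 10 others 26.5. Among the called ones, Wnt11 (45) was the richest of 2 windows and Wnt5b (47) of 3. Each of the 10 others had 1 window, so the rule could raise the called side alone. The called ligands Wnt5a, Wnt7b and Wnt10a had no promoter to count. Those ranges overlapped: called ligands lay between 29 and 51, and the others between 6 in Wnt8b and 58 in Wnt9a. These are descriptions of sequence, and methylation was not measured here.

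Of the 10 Frizzled receptor genes, 9 were above the reference level on all 3 arrays, against 59.6% of all genes, and Fzd10 was the exception. Fzd3, a receptor known for axon guidance and planar cell polarity, had 10.80, 10.85 and 10.80 on arrays 1, 2 and 3. Fzd9 had 8.95 on every array. Fzd8 had 8.91, 8.93 and 8.77. These 3 genes had margins of 5.19, 3.32 and 3.25 and so lay far over the reference level on each array.

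Fzd2 had 8.46, 8.64 and 8.34. Fzd4, which also serves as the receptor of the non-Wnt ligand norrin, had 7.58, 7.84 and 7.53. Fzd7 had 7.51, 7.51 and 7.48. For Fzd2 and Fzd4 array 2 was the highest and array 3 the lowest, while Fzd7 was nearly level across the arrays. Fzd1 had 7.25, 7.25 and 7.21. Fzd5 had 7.04, 7.20 and 6.98. Fzd6 had 6.72, 6.80 and 6.72, a mean margin of 1.12. Among called Frizzled genes Fzd6 had the smallest margin, and its call ended when the 99th percentile of the same nasal receptors was taken as the reference (adjusted p = 0.118, limma).

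Fzd10 had 4.51, 4.55 and 4.51, which is 1.10 under the reference level on average and inside the bulk of the nasal receptor probe sets, at their percentiles 73.5, 76.4 and 72.0. Fzd10os had 6.26, 6.38 and 6.26 and was called, with a margin of 0.68. With Fzd10os counted, 10 of 11 symbols of the Frizzled pattern were called. Fzd10os was no longer above when the reference was the 99th percentile, where its margin was -0.10.

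Both co-receptors were above the reference level. Lrp5 had 8.97 on every array. Lrp6 had 10.56 on every array in the probe set used, and a second probe set of Lrp6 had 6.11 on every array. The 2 sets of this gene thus differed widely in signal while both lay over the reference level.

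**Figure D1:**
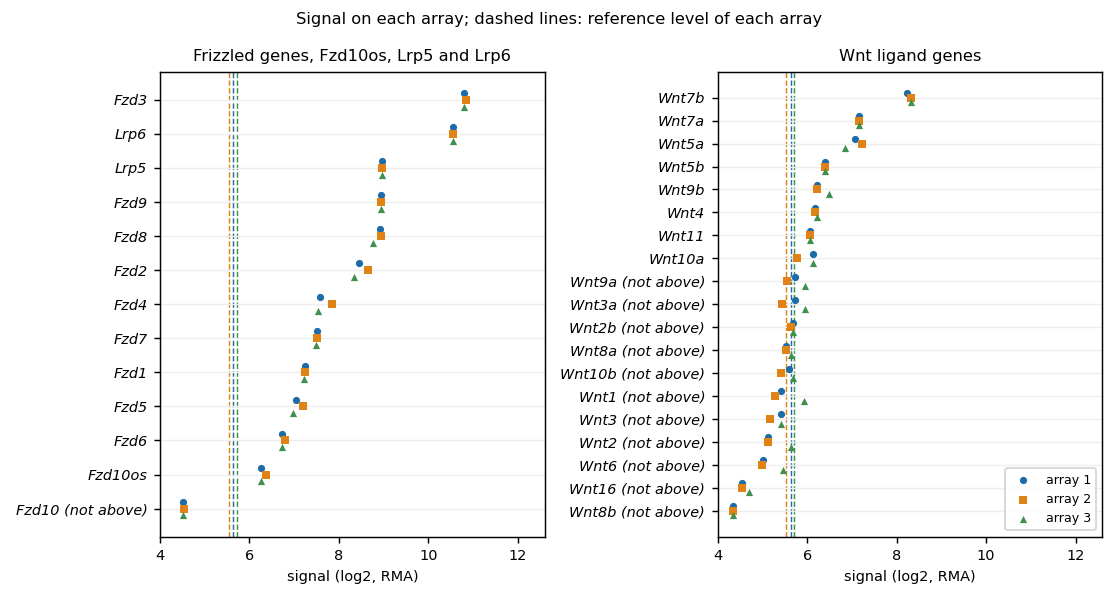
Signal (log2, RMA) of each Frizzled gene, Fzd10os, Lrp5 and Lrp6 (left) and each Wnt ligand gene (right) on arrays 1, 2 and 3, with a dashed line for the reference level of each array in the same colour. Genes run down the page by mean signal. Only Fzd10 of the left panel lies left of the lines, while 8 of 19 ligands were called above them.

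Of 19 Wnt ligand genes 8 (42.1%) were above the reference level, against 59.1% of all genes. The side of the background on which the ligands fell depended on the level: with the 90th percentile as the reference 14 (73.7%) were called, against 66.7% of all genes, and with the 99th 3 (15.8%), against 44.9%. No difference between ligands and all genes was tested. The 3 with the largest margins were Wnt7b, Wnt7a and Wnt5a. Wnt7b had 8.24, 8.31 and 8.31, and Wnt7a had 7.16 on every array. Both genes encode ligands that are known to be made by neural and oligodendrocyte precursors and to act on brain vessels through beta-catenin. Wnt5a, a ligand of the pathway without beta-catenin, had 7.06, 7.23 and 6.84, so that array 3 was the lowest. The 3 genes were the ligands still called under each of the 10 alternatives that were run.

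The other 5 called ligands lay closer to the reference level. Wnt9b had 6.23, 6.23 and 6.49. Wnt5b, the close relative of Wnt5a, had 6.39 on every array. Wnt4 had 6.17, 6.16 and 6.21, with a margin of 0.56. Wnt4 and Wnt9b were over the level on each array by more than their own SD. Wnt5b was over it on each array too, but its equal values give no estimate of spread. Wnt11, known for cell movements in gastrulation, had 6.06, 6.06 and 6.07 (limma adjusted p = 2.50e-08). Wnt10a had 6.13, 5.77 and 6.13 (limma adjusted p = 6.44e-07), with array 2 the lowest. Wnt4, Wnt5b, Wnt9b, Wnt10a and Wnt11 all lost their calls with the 99th percentile or with another set of reference genes, which left 3 of 19 ligands.

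Of the 11 ligands not called, 9 lay within 0.5 of the reference level. Wnt9a had 5.73, 5.55 and 5.95 (limma adjusted p = 0.104), over the level on each array by small amounts. Wnt3a, the ligand commonly used to activate beta-catenin in culture, had 5.73, 5.43 and 5.96 (limma adjusted p = 0.236), and array 2 was under its reference level. Without array 2 both were called, with limma adjusted p of 0.0388 for Wnt9a and 0.0359 for Wnt3a. Wnt2b had 5.68, 5.65 and 5.68 (limma adjusted p = 0.482). Its margin of 0.041 was smaller than the SD of that margin, 0.076.

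Wnt8a had 5.53, 5.53 and 5.63. Wnt10b had 5.59, 5.41 and 5.69. Wnt1, a ligand of the midbrain and hindbrain organiser, had 5.41, 5.28 and 5.94. Wnt8a and Wnt10b did not exceed the level on any array, and Wnt1 passed it on array 3 alone. Wnt3 had 5.40, 5.17 and 5.40. Wnt2 had 5.11, 5.11 and 5.64. Wnt6 had 5.004, 4.99 and 5.46. These 3 were under the level on each array, and array 3 was the highest for Wnt2 and Wnt6. Wnt16 had a mean of 4.59 ± 0.092 and Wnt8b had 4.34 on every array. Wnt8b lay at percentiles 67.0, 68.0 and 66.0 of the nasal receptor probe sets. A signal under the reference level does not show that a transcript was absent.

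Several Wnt genes lie side by side in the genome, and neighbours did not always share a call. In RefSeq's gene order on GRCm38.p6, 4 pairs of members had 0 protein-coding genes between them. On chromosome 1, Wnt10a (6.01) was called and its neighbour Wnt6 (5.15) was not. On chromosome 11, Wnt9b (6.32) was called and Wnt3 (5.32) was not. The other pair of chromosome 11, Wnt3a (5.71) and Wnt9a (5.74), and the pair of chromosome 15, Wnt1 (5.54) and Wnt10b (5.56), were not called in either member.

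Receptors and ligands were then set side by side on each array. On array 1, 9 of 10 Frizzled genes and 11 of 19 ligands exceeded the reference level. On array 2 it was 9 and 10, and on array 3 it was 9 and 11. Without a test, as here, 61.9%, 62.2% and 61.3% of all genes exceeded the level on arrays 1, 2 and 3, so the ligands, at 57.9%, 52.6% and 57.9%, were close to that background and under it. The median Frizzled signal was 7.54, 7.67 and 7.51 on arrays 1, 2 and 3, and the median ligand signal was 5.73, 5.55 and 5.95. The Frizzled median was thus well over the reference level on each array, while the ligand median was close to it, and the difference between them was 1.82, 2.13 and 1.55 (mean 1.83 ± 0.29, SD, n = 3). The direction was the same on all 3 arrays. No test was made: an exact two-sided sign-flip test over 3 arrays cannot give a p under 0.25. Because the genes have different probes, the difference is not a ratio of transcript numbers. With Fzd10os counted as a receptor the mean difference was 1.76.

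**Figure D2:**
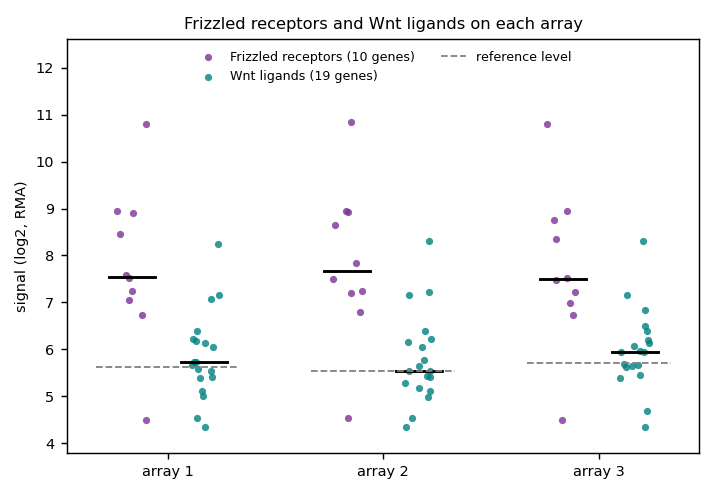
Signal (log2, RMA) of 10 Frizzled receptor genes and 19 Wnt ligand genes on arrays 1, 2 and 3. Each point is a gene, black bars are medians and dashed lines are the reference level of the array. The Frizzled medians of 7.54, 7.67 and 7.51 lie over the lines and the ligand medians of 5.73, 5.55 and 5.95 lie near them.

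The 8 called ligands had a median SD between arrays of 0.034 and the 11 others one of 0.14, beside 0.017 for all called genes and 0.032 for all others. A range over 0.5 log2 units was found for 3 of the 49 members, Wnt1, Wnt2 and Wnt3a, against 5.31% of all genes, so the count was near its background. Without array 3 the count was 0, against 2.31% of all genes, and without array 2 it was 2, against 1.18%. Of the 11 ligands not called, 8 (72.7%) were highest on array 3 alone, against 25.8% of all genes not called. On array 2 alone 7 (63.6%) were lowest, against 29.1%. The mean departure of these ligands from the gene's own mean was 0.17 on array 3 and -0.14 on array 2. The reference level moved the same way, being highest on array 3 and lowest on array 2. All 9076 genes not called departed in the same direction by less, 0.038 on array 3 and -0.039 on array 2. Marker lists of other cell types did not move alike. The summed linear signal on arrays 1, 2 and 3 was highest on array 3 for the choroid plexus (585, 577 and 624), microglia and macrophage (432, 406 and 465) and ependymal markers (615.1, 615.3 and 629). It was lowest on array 3 for the mural and fibroblast markers (549.8, 552 and 538), and highest on array 1 for the endothelial markers (266, 252 and 263). These sums include markers not called. The called choroid plexus markers, Otx2 and Ttr, were equal on all arrays, and no endothelial marker was called. Among called microglial and ependymal markers, Cx3cr1 and Ccdc153 were highest on array 3, P2ry12 was lowest there, and Foxj1 and Dynlrb2 were highest on array 2. The part of background signal or of such cells in these ligand values was not tested.

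The called Frizzled genes departed the other way from the ligands not called. Of 9, 6 were highest on array 2 alone and 6 were lowest on array 3 alone, with mean departures of 0.072 and -0.060. On arrays 2 and 3 the 8 called ligands departed by -0.018 and 0.019, and all called genes by 0.014 and -0.016. Over all 13104 called genes, 34.3% were highest on array 2 alone and 32.9% lowest on array 3 alone. Exactly equal values on all 3 arrays were found for 14 members and for 39.4% of all genes, so an SD of 0 is no estimate of the spread between cultures.

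**Figure D3:**
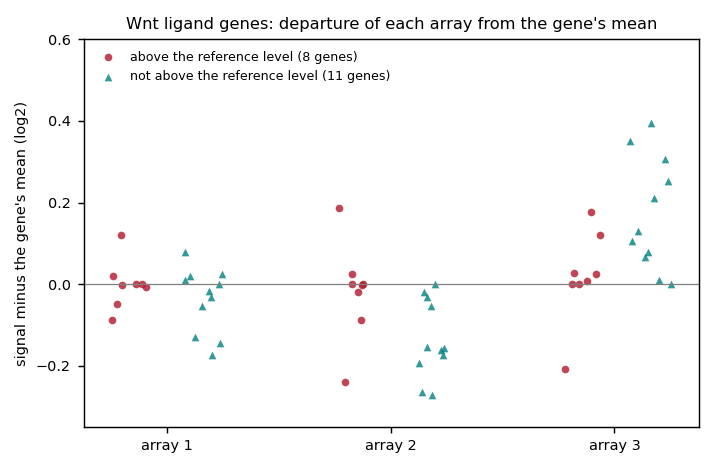
Departure of each array from the gene's own mean signal (log2) for 8 Wnt ligand genes above the reference level (circles) and 11 not above it (triangles). Each point is 1 gene on 1 array. On array 3 the ligands not above lie higher, by 0.17 on average, and on array 2 lower, by 0.14.

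Among the secreted antagonists 4 of 8 were called, 3 Sfrp genes and 1 Dkk gene. This count was near the 59.1% of all genes and is no result about the antagonists. Sfrp1 had 9.84, 9.83 and 9.79. Sfrp2 had 7.58, 7.69 and 7.58 in the probe set used and 4.90 on every array in its second set, so the call of Sfrp2 holds for 1 of its 2 sets (their mean was called too). Sfrp4 had 5.91, 6.10 and 5.91 (limma adjusted p = 7.68e-06), with array 2 the highest. Sfrp5 had 5.71 on every array (limma adjusted p = 0.206), which lay over the level on arrays 1 and 2 and at it on array 3. Sfrp4 was no longer called at the 99th percentile.

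Dkk3 was the Dkk gene called, at 8.83, 8.83 and 8.72. It is a divergent member of the family that does not share the established action of Dkk1 on Lrp5 and Lrp6. Dkk1, a blocker of the co-receptors and itself a target of beta-catenin, had 5.59, 5.15 and 5.59. Dkk2 had 5.67, 5.63 and 5.67 (limma adjusted p = 0.533), and Dkk4 had 5.19 on every array. Dkk1 and Dkk4 were under the reference level on each array, and Dkk2 on array 3 alone.

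The Dishevelled genes, Axin1, Apc and Ctnnb1 were all above the reference level, as were 59.1% of all genes. Of the 3 Dishevelled genes, Dvl3 had 11.35, Dvl1 8.31 and Dvl2 7.73, each with the same value on all arrays. The scaffold gene Axin1 averaged 8.57 ± 0.058 (SD, n = 3), and Apc, its partner in the destruction complex, had 10.70 on every array. Ctnnb1, which encodes beta-catenin, had 12.21 on every array. Beta-catenin is regulated as a protein, which arrays do not measure, and it is also a part of cell junctions.

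The 2 measured genes of the TCF and LEF class fell on different sides. Tcf7l1, a factor known mostly as a repressor in the absence of signal, had 9.87, 9.88 and 9.78. Lef1, an activating factor whose gene is also a target of the pathway, had 5.53, 5.43 and 5.53, under the reference level on every array. It was not called except with the 90th percentile as the reference, where its margin was 0.23. Of the related factors outside the 49 members, Tcf7l2 had 9.39 ± 0.034 and was called.

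**Figure D4:**
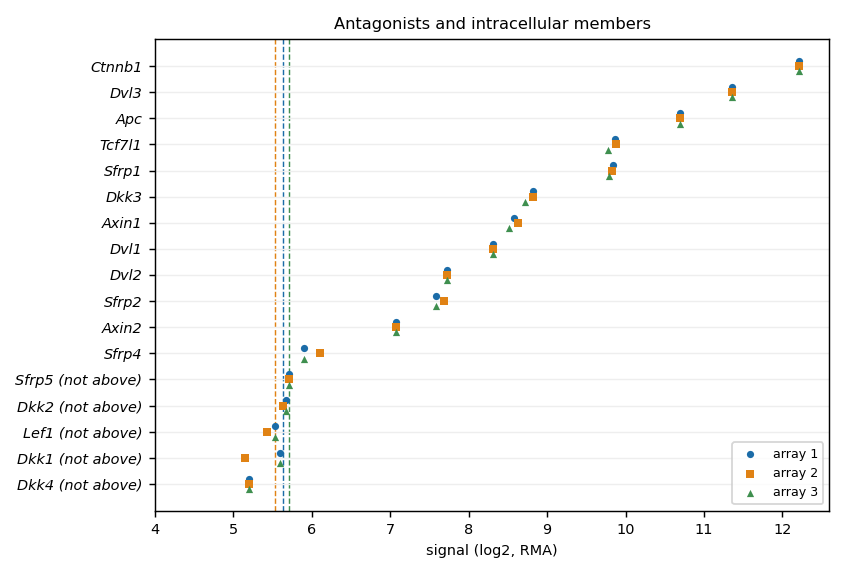
Signal (log2, RMA) of the Sfrp and Dkk antagonist genes and the intracellular members on arrays 1, 2 and 3, with a dashed line for the reference level of each array. Genes run down the page by mean signal. Sfrp5, Dkk2, Lef1, Dkk1 and Dkk4 were not above the reference level.

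Axin2, widely used as a readout of beta-catenin activity and itself a negative regulator, had 7.07 on every array in the probe set used. Its second probe set had 5.19, 4.86 and 5.43, under the reference level on each array, so the sets of this gene disagreed, and their mean was called. The promoters of Axin2 and Dkk1 are shown because these targets fell on opposite sides of the reference level. Capitals mark the TCF/LEF core, searched on both strands as CTTTGAA or CTTTGAT or CTTTGTA or CTTTGTT, forms that do not overlap each other.
Axin2 (chr11:108920099-108920398, plus strand): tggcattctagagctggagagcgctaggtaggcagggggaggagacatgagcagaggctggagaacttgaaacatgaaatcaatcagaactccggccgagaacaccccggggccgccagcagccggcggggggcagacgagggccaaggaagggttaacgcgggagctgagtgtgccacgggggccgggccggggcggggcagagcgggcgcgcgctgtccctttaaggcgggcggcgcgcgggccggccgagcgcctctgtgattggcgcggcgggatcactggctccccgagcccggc
Dkk1 (chr19:30549447-30549746, minus strand): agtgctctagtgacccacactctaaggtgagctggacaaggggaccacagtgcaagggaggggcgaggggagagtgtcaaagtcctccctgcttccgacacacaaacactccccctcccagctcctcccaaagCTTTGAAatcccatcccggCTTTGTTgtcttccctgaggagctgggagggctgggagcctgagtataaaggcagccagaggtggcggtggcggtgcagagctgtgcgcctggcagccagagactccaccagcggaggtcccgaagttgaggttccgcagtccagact
The Axin2 window held 0 matches. The Dkk1 window held 2, which begin 117 and 98 bases before the start. A match was held by 16.9% of all 32851 promoters tabulated, and of the 32 members with a promoter 6 held one (18.8%, against 18.9% of all genes), so the members were near the background. The others were Fzd7, Lef1, Wnt11, Wnt3 and Wnt5b. A match is a run of letters, not a shown binding site, and no match says only that these letters are not in this window.

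The rest of the pathway was read from lists of further genes, each set against the same 59.1% of all genes. These lists were read at the main reference level alone, and the alternatives were not run for them. Of 14 measured genes described as transcriptional targets, 11 were called. Among them were Nkd1 (6.65 ± 0.096) and Sp5 (5.95 ± 0.13), while Lef1, Dkk1 and Notum (5.56) were not. The proliferation genes Ccnd1 (9.01, 9.06 and 8.93 on arrays 1, 2 and 3) and Myc (10.03), which many pathways control, were called too. Cdx2, a factor of the posterior body and intestine, was called at 6.19 ± 0.10. On each array Cdx2 and Sp5 lay under the 99th percentile of the nasal receptors, which was 6.42, 6.09 and 6.69.

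Of the 3 genes listed for Wnt secretion and release 2 were called (66.7%). This share was near the 59.1% of all genes and is no result about the list. Porcn, the enzyme gene that adds the lipid to Wnts, had 9.19 on every array, and Wls, their carrier to the cell surface, had 9.46. Notum, which encodes an enzyme that removes the lipid, was not called. Of 9 other receptors and co-receptors 8 were called, including the receptor tyrosine kinase genes Ror1 (6.67 ± 0.33), Ror2 (6.53 ± 0.35) and Ryk (11.50). Ror1 had 6.55, 7.04 and 6.42 and Ror2 had 6.51, 6.20 and 6.90, so the arrays ranked these 2 genes in opposite order. Musk (4.97), the receptor of the neuromuscular junction, was not called.

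Some further genes from these lists, chosen after their values were seen, are known for their roles at brain vessels. Ndp, which encodes norrin, had 10.40 on every array. Tspan12, a partner of Fzd4 in norrin signalling, had 11.21 ± 0.0046, and Fzd4, Lrp5 and Lrp6 were described above. Adgra2 (6.61 ± 0.17) and Reck (7.77 ± 0.023), which together serve Wnt7a and Wnt7b at the vessel wall, were called as well. Beside these values, 0 of 8 endothelial markers were above the reference level: Pecam1 had 5.30, Cdh5 5.48 and Cldn5 5.11. Of the 8 mural and fibroblast markers, some of which mark cells of the vessel wall, 4 were above, among them Rgs5 (7.25 ± 0.12) and Pdgfrb (6.99 ± 0.11). The part of such cells in these values was not tested.

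Of 9 genes of the R-spondin and receptor turnover axis 7 were called. R-spondins raise the number of Frizzled receptors by way of Lgr proteins and the ubiquitin ligases Rnf43 and Znrf3. Rspo1 (6.62 ± 0.024) and Rspo3 (6.52 ± 0.050) were called, and Rspo2 (5.61, limma adjusted p = 0.898) and Rspo4 (5.51) were not. Lgr4 had 8.86, Lgr5 6.36 and Znrf3 8.59 ± 0.015.

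Of 11 further antagonist and surface genes 8 were called. The Sfrp relative Frzb had 6.69 on every array, the guidance protein gene Draxin 9.39 ± 0.057 and the Dkk co-receptor gene Kremen1 8.22. Wif1 lay near the level, at 5.71, 5.66 and 6.18 (limma adjusted p = 0.00290), and array 3 was the highest. Cer1 (5.36), Sost (5.60) and Dkkl1 (5.44) were not called.

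All 15 measured cytoplasmic regulators were called, including the kinase genes Gsk3b (11.59) and Csnk1a1 (10.42), and 12 of 13 nuclear partners of beta-catenin, including Bcl9 (9.77) and Bcl9l (8.13), with Tle2 (5.70) not called. All 11 planar cell polarity genes were called as well. Vangl2 had 8.59 ± 0.061, Celsr1 9.04 ± 0.090 and Vangl1 7.06 ± 0.30. Vangl1 had 7.01, 7.38 and 6.79, with array 2 the highest.

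**Figure D5:**
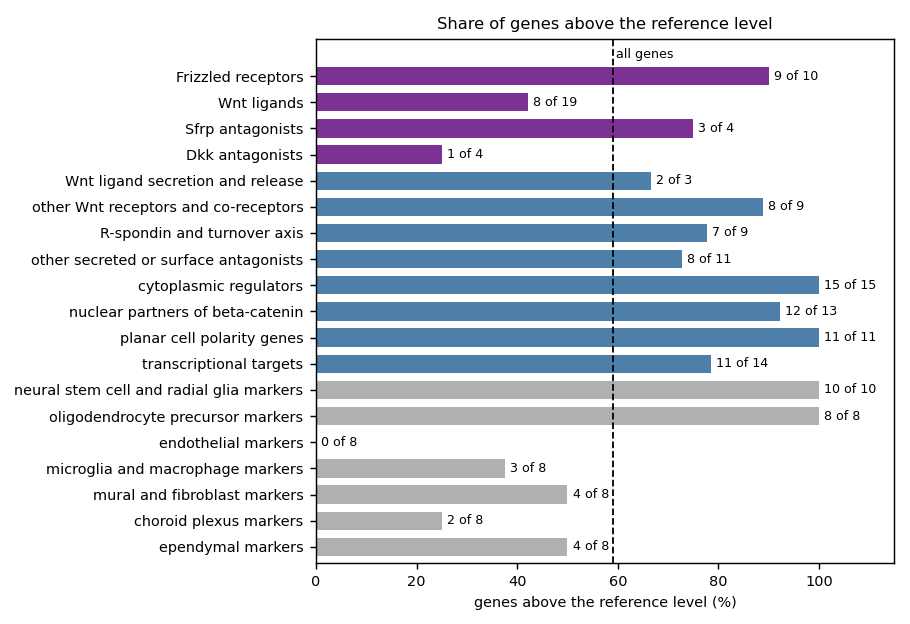
Share of genes above the reference level (%, axis from 0) in 4 classes of members (purple), 8 lists of further pathway genes (blue) and 7 lists of cell type markers (grey). Each bar gives the count called of the genes measured, and the dashed line is the 59.1% of all genes. Wnt ligands (8 of 19) and Dkk antagonists (1 of 4) lie under the line, and Frizzled receptors (9 of 10) over it.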

How the data were processed

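Total RNA of 3 neurosphere cultures was measured on expression arrays. The authors deposited log2 signals for 41345 probe sets, for which the submitters' processing notes name RMA. Its version and options are not given in the sources used here. RMA corrects background, normalises between arrays and summarises the probes of a set, so values are relative within this series, and depth has no counterpart. Their number (n = 3) limits the precision.

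Gene names came from the array's annotation table: 23521 probe sets carried 1 symbol, 1814 several and 16010 none. Only the first were used, as 22180 genes, with the probe set of highest mean signal per gene. A set shared by Dvl2 and Mir324 was therefore not used. Signals minus the array's reference level (95th percentile of nasal receptor probe sets) were fitted in limma 3.58.1 (R 4.3.3; an intercept, eBayes with trend, one-sided p, adjusted over all genes after Benjamini-Hochberg), with infinite prior degrees of freedom. The fit was also run on simulated signals with 1 spread for all genes. In the data 39.4% of genes had equal values on all 3 arrays. That run therefore does not measure the error rate here. Lists are described by counts, with no list test.

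Every member is named; values on each array are given for called ligands, Frizzled, Sfrp, Dkk, co-receptor and TCF or LEF genes and Axin2, for members within 0.5 of the level and for those with a range over 0.5, and for other members where they add to these. Further lists are given by counts and examples; examples that are not among the first 4 called or not called in the written order were chosen after their values were seen. The members and lists were chosen with earlier results of these data known. The planned receptor count included Fzd10os; leaving it out was chosen after seeing the data, and both counts are given. Promoters were matched by gene ID to RefSeq windows (GRCm38.p6) with Python 3.11.15 and pandas 2.3.3, and plots used matplotlib 3.10.9. Alternatives changed the reference percentile (90 or 99), the reference genes, the probe set rule, the scaling, the model and the call rule, and left out each replicate.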

Additional observations from a re-analysis of the deposited data

How the results depend on the processing

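Of the 49 members, 24 were called in the main setting and under all 10 alternatives, 7 under none and 18 under some. The 24 included 8 Frizzled genes (all but Fzd6 and Fzd10) and 3 ligands, Wnt5a, Wnt7a and Wnt7b. Setting the level at the 90th percentile gave 14 called ligands (73.7%, against 66.7% of all genes), so that the ligand share then lay over the background and not under it. It was 3 (15.8%) with the 99th percentile (44.9% of all genes) and with bitter taste receptors, defensins and keratin-associated proteins as reference genes (43.5% of all genes). Leaving out 1 replicate gave 8 to 10 called ligands and 0 to 3 members with a range over 0.5. The share of all genes with such a range was then 1.18% to 4.7%. The count of all called genes, of members and of Frizzled symbols (8 to 10) stayed within 1.5 times the main value under each alternative. The Frizzled minus ligand difference was followed with Fzd10os counted, where it was 1.76 ± 0.22 (SD, n = 3). It kept its direction and moved by less than that SD under each alternative run for it. The difference of 1.83 without Fzd10os was not put through these alternatives. Called members whose margin turned negative, with the 99th percentile and with the other reference genes, were Fzd10os (-0.10 and -0.14), Sfrp4 (-0.43 and -0.46), Wnt10a (-0.39 and -0.42), Wnt11 (-0.34 and -0.38), Wnt4 (-0.22 and -0.25), Wnt5b (-0.0089 and -0.045) and Wnt9b (-0.085 and -0.12). These alternatives raise the level by construction, and the 90th percentile lowers it. No paired analysis was possible because the arrays form 1 group. Signal over background limits the calls: 17 members lay within 0.5 log2 units of the reference level.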

Other observations

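Exact values were shared between genes as well as between arrays. On array 1, 10797 of 22180 genes (48.7%) had a value that another gene also had, on array 2 40.4% and on array 3 41.5%. Of the 49 members, 24, 16 and 16 shared their value with another gene on arrays 1, 2 and 3. Wnt3a and Wnt9a both had 5.73 on array 1. The cause was not tested.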
